A study of Caenorhabditis elegans with 6 samples.

Results

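The nuclear hormone receptor genes of Caenorhabditis elegans were followed in embryos of the wild-type strain N2 and of the mutant strain yap-1(ys38). Members were the probe sets whose only gene symbol in the platform annotation is nhr- with a number, with nhr-23 and nhr-25 left out. This rule, which uses names and no measured value, took 289 of 22548 non-control probe sets, and they stand for 252 genes. Another 14 probe sets carry an nhr- symbol beside another entry, nhr-62 among them, and were not used. Embryos of both strains were released by bleaching egg-bearing adults grown on plates, without other treatment, and RNA from 3 biological replicates of each was put on 1 Affymetrix array per replicate. The comparison was made by the study to look for genes through which the Hippo pathway maintains cell polarity. The gene yap-1 codes for a worm relative of YAP, a transcriptional coactivator that this kinase cascade restrains. The labels do not say which part of the gene the allele ys38 changes, and the embryos were whole and of mixed cell types.

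Nuclear hormone receptors are transcription factors with a zinc-finger domain that binds DNA and, in most of them, a second domain that can bind a small lipid-like ligand. In nematodes the family has grown far beyond that of insects or mammals, mainly by duplication of a gene related to the vertebrate receptor HNF4, and only a few worm receptors have clear counterparts outside nematodes. Those with known functions in the worm act in fat and vitamin metabolism, detoxification, moulting and the development of epidermis, muscle, neurons and reproductive organs, while most of the duplicated members have no described role.

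All values below are MAS5 signals, a brightness per probe set on a linear scale that the authors scaled to a common mean in every array. The median over all 22625 probe sets was 118.8 to 133 in 5 arrays and 87.2 in wild type replicate 2, an array that the submitters left out of their own comparison. Strains were therefore compared on wild type 1 and 3 against yap-1(ys38) 1, 2 and 3, and wild type 2 is shown beside them. For yap-1 itself the signals were 267 and 555 in wild type 1 and 3, 443 in wild type 2, and 371, 260.4 and 302 in yap-1(ys38) 1, 2 and 3, and the strains overlapped (log2 fold change -0.32, SE 0.34, limma adjusted p = 1). Maternal and early embryo markers ranged widely in brightness. The brightest, pos-1, read 10707, 12112 and 11899 in wild type 1, 2 and 3 and 9385, 10535 and 9725 in yap-1(ys38). The dimmest, egg-1, read 277, 521 and 156 in wild type 1, 2 and 3 and 252, 198 and 217 in yap-1(ys38), and no marker read 0. After subtraction of strain means, arrays sharing replicate number 1, 2 or 3 correlated across the strains at 0.364, 0.345 and 0.445. Without that subtraction wild type 2 was closest to yap-1(ys38) 2 (correlation 0.908 over all tested probe sets). That mutant array was closer to every other array than to wild type 2.

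Most receptor probe sets were dim. Of the 289, 158 had a mean log2 signal over the 6 arrays above the 40th percentile of all non-control probe sets, a geometric mean of 53.5, and were tested. That is 54.7%, against 60% of all probe sets by construction. They cover 136 of the 252 genes. In the upper range the family was thinner than the array as a whole, since 14 probe sets (4.84%) had a geometric mean over 1000 against 16.6% of all, and 94 (32.5%) lay between the filter and 200 against 17.5% of all. A probe set's brightness depends on its probes as well as on the RNA, so these are shares of signals and not of transcript amounts.

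**Figure D1:**
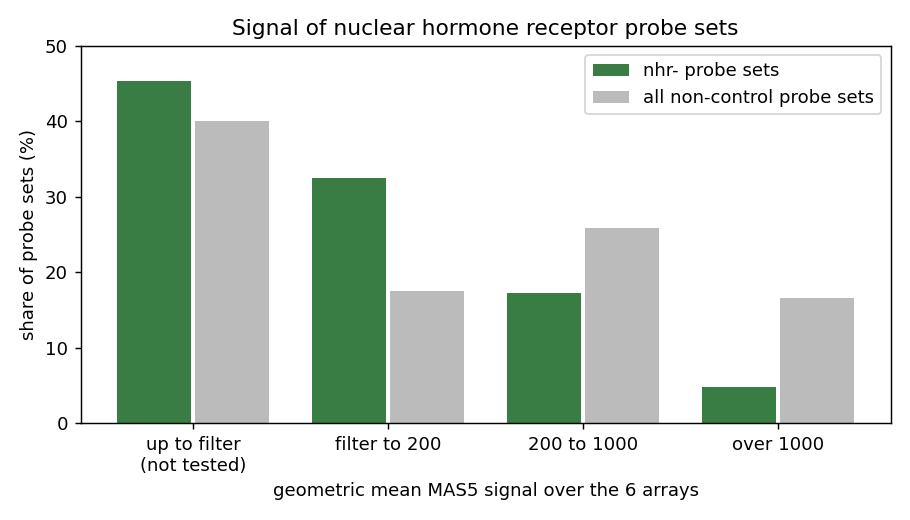
Share of probe sets (vertical axis, percent) in 4 ranges of the geometric mean MAS5 signal over the 6 arrays (horizontal axis), for the 289 nhr- probe sets (green) and all 22548 non-control probe sets (grey). Receptor probe sets are fewer over 1000 (4.84% against 16.6%) and more numerous between the filter and 200 (32.5% against 17.5%).

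The remaining 131 probe sets were not tested, and 116 genes had no tested probe set. Of these 131, 92 read under 53.5 in every array and none read over it in every array. The other 39 crossed it in some arrays, the highest value being 125 for the second probe set of nhr-6 in yap-1(ys38) 3. At the edge of the filter nhr-115 (geometric mean 53.8) and nhr-80 (54.6) were just inside and nhr-226 and nhr-30 just outside. Of the tested probe sets 128 read above 53.5 in every array and 30 fell under it in at least 1.

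Among the members 11 genes had a probe set with a geometric mean over 1000. nhr-49, a regulator of fatty acid oxidation and desaturation that answers to fasting, read 4092 and 4277 in wild type 1 and 3, 3706 in wild type 2, and 4206, 3567 and 3389 in yap-1(ys38) 1, 2 and 3. nhr-46 read 3394 and 3907 in wild type 1 and 3, 3081 in wild type 2, and 3736, 3913 and 3487 in yap-1(ys38) 1, 2 and 3. For both genes the 6 arrays lay close together and the strains overlapped. nhr-34 read 1956 and 2427 in wild type 1 and 3, 1880.1 in wild type 2, and 2114, 2454 and 3038 in yap-1(ys38) 1, 2 and 3, lowest in wild type 2 and highest in yap-1(ys38) 3. nhr-3 read 2325 and 2810.4 in wild type 1 and 3, 1078 in wild type 2, and 2601, 2221 and 3174 in yap-1(ys38) 1, 2 and 3, so that wild type 2 stood alone below the other 5 arrays. nhr-66, a partner of NHR-49 in the control of lipid genes, read 1599 and 2028 in wild type 1 and 3, 1412 in wild type 2, and 1741, 2314 and 1617 in yap-1(ys38) 1, 2 and 3, with no order by strain at this probe set. nhr-88 read 1403 and 1707 in wild type 1 and 3, 460.3 in wild type 2, and 1719, 1176 and 1686 in yap-1(ys38) 1, 2 and 3, and again wild type 2 was the low array.

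nhr-31, which is needed for growth of the tubular excretory cell, read 1281 and 1309 in wild type 1 and 3, 608 in wild type 2, and 1330.1, 1212 and 1933 in yap-1(ys38) 1, 2 and 3. Wild type 2 lay below and yap-1(ys38) 3 above the others. nhr-57, a gene induced by the hypoxia factor HIF-1, read 1478 and 932 in wild type 1 and 3, 701 in wild type 2, and 1520.2, 1088 and 1954 in yap-1(ys38) 1, 2 and 3, a wide spread within both strains. nhr-2, a receptor made in the early embryo, read 1147 and 1173 in wild type 1 and 3, 1555 in wild type 2, and 998, 1182 and 1065 in yap-1(ys38) 1, 2 and 3, and here wild type 2 was the highest array. nhr-71 read 1129 and 1099.9 in wild type 1 and 3, 1118 in wild type 2, and 962, 1114 and 1093 in yap-1(ys38) 1, 2 and 3, the tightest of these 11 genes, with all arrays overlapping. nhr-10, which turns on the propionate breakdown route when vitamin B12 is low, read 908 and 1031 in wild type 1 and 3, 903 in wild type 2, and 1365, 1158 and 763 in yap-1(ys38) 1, 2 and 3, its strains overlapping.

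**Figure D2:**
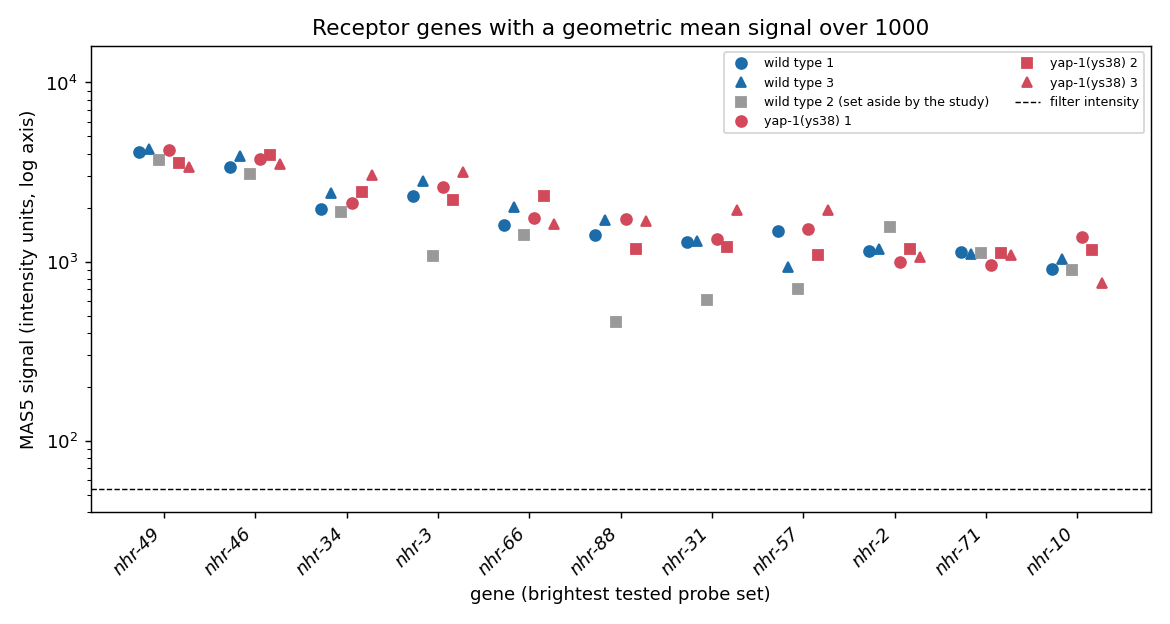
MAS5 signal (vertical axis, log scale) of the 11 receptor genes with a geometric mean over 1000 (horizontal axis), 1 point per array: wild type blue, yap-1(ys38) red, wild type 2 grey, the shape giving the replicate number, and the dashed line the filter intensity of 53.5. The strains overlap for every gene, and wild type 2 is the lowest array for nhr-46, nhr-34, nhr-3, nhr-66, nhr-88, nhr-31 and nhr-57 and the highest for nhr-2.

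By gene position in the RefSeq table of assembly WBcel235, 164 of the 252 genes lie on chromosome V (65.1%), 28 on IV, 22 on X, 17 on I, 13 on II and 8 on III. Only 1 of the 11 genes over 1000, nhr-57, is on chromosome V. Of the chromosome V genes 85 (51.8%) had a tested probe set, against 51 of the 88 elsewhere (58.0%), with 20 of 28 on IV and 15 of 22 on X but 4 of 17 on I. Neighbouring receptor genes are common: 116 members stand directly beside another nhr- gene among protein-coding genes, in 41 runs of up to 9. Of these 66 were tested (56.9%), much as of the 125 that stand alone (54.4%). The likeness did not hold within chromosome V, where 60 of 98 neighbouring genes were tested (61.2%) against 23 of 59 standing alone (39.0%). Of the 11 genes over 1000, 10 stand alone. The exception is nhr-31. The remaining 11 members are not protein-coding genes in that table. Genes numbered under 100 were tested more often, 66 of 87 (75.9%), than those numbered 100 or over, 70 of 165 (42.4%), and all 11 over 1000 are numbered under 100. In these counts a gene stands at its brightest probe set, so genes with several had more chances to be bright. All 11 but nhr-31 and nhr-57 have more than 1 probe set, as do 31 of the 252 genes in all, and no allowance was made for this.

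Receptors of near-identical sequence may share probes. Of the member probe sets 36 carry the suffix s and 4 the suffix x, which the array's maker gives to probe sets that match several transcripts, and 28 and 4 of these were tested. Values of such probe sets may mix related transcripts. Of 20 genes with more than 1 tested probe set, 8 had probe sets on both sides of 0 in the comparison of strains. Over all 20 the median gap between a gene's highest and lowest log2 fold change was 0.21.

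No receptor was called different between the strains. limma called 0 of the 158 tested probe sets at an adjusted p under 0.05, as it called 0% of all 13529 tested, and the lowest adjusted p of a member was 1. At an unadjusted p under 0.05 stood 3 members (1.9%), against 1.04% of all. Of these 1 was higher in yap-1(ys38), against 0.658% of all, and 2 were lower, against 0.384% of all. The methods' t-test gave 1 member (0.63%), nhr-150, at its unadjusted threshold, against 1.49% of all, and 0 after adjustment. With a 2-fold change required as well, 0 members passed, against 13 of all tested probe sets. For 14 members (8.86%) the 3 mutant arrays did not overlap wild type 1 and 3, against 10.8% of all probe sets. They lay above in 6, against 5.9% of all, and below in 8, against 4.92% of all. For the limma fits that follow, the share of all probe sets at that level was not computed, so their counts have no background. Blocking on the replicate number left 0 members called and brought 6 to an unadjusted p under 0.05. In the fit with no block, 10 members reached it when wild type 1 was dropped and 0 when yap-1(ys38) 2 was.

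The receptors' log2 fold changes lay somewhat more often above 0 than below it. Of the 158 probe sets 94 lay higher and 64 lower, a median log2 fold change of 0.097 against 0.0062 over all tested probe sets, while the median standard error of a single member was 0.33. This rested on single arrays: without wild type 3, 76 of 158 lay higher and the median was -0.015, and without yap-1(ys38) 1 the median was 0.032. Log2 fold changes of 146 members were smaller than 0.5 in size, and 1 member passed 1. With standard errors of this size small changes of single receptors could not be detected, and the 95% intervals given below show what remains possible for each.

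Of the receptors with counterparts outside nematodes, 7 of 9 were tested, 2 higher and 5 lower in yap-1(ys38), none called (median -0.092). nhr-8, a relative of DAF-12 that protects against toxins and steers cholesterol use, read 449.7 and 683 in wild type 1 and 3, 257 in wild type 2, and 376, 292 and 659 in yap-1(ys38) 1, 2 and 3. It was high in both arrays numbered 3, and the strains overlapped (log2 fold change -0.41, 95% interval -1.22 to 0.40). nhr-91, the counterpart of vertebrate GCNF, read 672 and 591 in wild type 1 and 3, 413 in wild type 2, and 704, 662 and 688 in yap-1(ys38) 1, 2 and 3, close together outside wild type 2 (0.12, -0.34 to 0.58). nhr-64, an HNF4-like receptor, read 606 and 396 in wild type 1 and 3, 481 in wild type 2, and 494, 386 and 507 in yap-1(ys38) 1, 2 and 3, with overlapping strains (-0.09, -0.70 to 0.51). nhr-69, the other HNF4-like receptor listed, had a log2 fold change of -0.16 (-0.90 to 0.58), its signals running from 128 to 227, both in yap-1(ys38).

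nhr-67, the counterpart of Tailless, which shapes the anchor cell, uterus and male tail, read 349.7 and 363 in wild type 1 and 3, 418 in wild type 2, and 304, 346 and 315 in yap-1(ys38) 1, 2 and 3, so that all yap-1(ys38) arrays lay below all wild-type arrays, wild type 2 included, by a small amount (-0.15, SE 0.23, adjusted p = 1). nhr-48, also of the DAF-12 group, had -0.01 (-0.92 to 0.90). The counterparts of the insect ecdysone-response receptors E75 and DHR78, nhr-85 and nhr-41, were too dim to test: nhr-85 read 7.61 and 5.66 in wild type 1 and 3, 1.44 in wild type 2, and 23.4, 1.88 and 9.51 in yap-1(ys38) 1, 2 and 3, and the brighter nhr-41 probe set read 44.2 and 60.3 in wild type 1 and 3, 7.73 in wild type 2, and 26.4, 41.2 and 59.5 in yap-1(ys38) 1, 2 and 3.

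Of the receptors known for development, 6 of 7 were tested, 3 higher and 3 lower, none called (median 0.070). nhr-40, needed for body wall muscle of the embryo and larva, read 678 and 907 in wild type 1 and 3, 535 in wild type 2, and 709, 899 and 705 in yap-1(ys38) 1, 2 and 3, with overlapping strains (-0.03, -0.55 to 0.48). nhr-60, needed in the epidermal seam cells, read 126 and 74.7 in wild type 1 and 3, 182 in wild type 2, and 131, 114.5 and 130.3 in yap-1(ys38) 1, 2 and 3, highest in wild type 2 and lowest in wild type 3 (0.37, -0.43 to 1.17). nhr-2 gave -0.10 (-0.52 to 0.32) at the probe set described above, 0.12 and -0.01 at its other tested probe sets, and nhr-31 gave 0.17 (-0.35 to 0.69). nhr-6, the counterpart of NR4A receptors, required for the spermatheca, gave 0.36 (-1.12 to 1.84), with -0.79 without wild type 1 and 1.51 without wild type 3, since its replicates lay far apart within each strain.

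Of the receptors of metabolism and stress, 15 of 16 had a probe set of their own and 14 were tested, 8 higher and 6 lower, none called (median 0.079). nhr-49 stood at -0.18 (-0.53 to 0.18) and at 0.12 in its second probe set, and nhr-66 at 0.05 (-0.43 to 0.54) and at 0.31 (-0.13 to 0.76) in its second, where the strains did not overlap. nhr-13, also of this lipid group, read 398 and 252 in wild type 1 and 3, 257 in wild type 2, and 452, 389 and 367 in yap-1(ys38) 1, 2 and 3, with wild type 1 among the mutant arrays (0.34, -0.28 to 0.96). nhr-80, which controls the stearoyl desaturases, read 22.2 and 61.3 in wild type 1 and 3, 61.7 in wild type 2, and 57.5, 82.5 and 66.5 in yap-1(ys38) 1, 2 and 3. Wild type 1 was the low array and the others overlapped, at signals around the filter (0.88, -0.30 to 2.07). nhr-57 stood at 0.33 (-0.32 to 0.99).

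nhr-10 stood at 0.14 (-0.46 to 0.73), and nhr-68, which acts with it on propionate breakdown, read 151 and 286 in wild type 1 and 3, 253 in wild type 2, and 152, 189.6 and 189 in yap-1(ys38) 1, 2 and 3, highest in wild type 3 (-0.24, -1.01 to 0.53). nhr-114, which lets worms grow on diets poor in vitamin B12, read 139 and 79.7 in wild type 1 and 3, 82.9 in wild type 2, and 111, 108 and 121 in yap-1(ys38) 1, 2 and 3, and its strains overlapped (0.11, -0.71 to 0.92). nhr-14, which limits iron uptake, read 252 and 153 in wild type 1 and 3, 62.8 in wild type 2, and 220.4, 163 and 139 in yap-1(ys38) 1, 2 and 3, with wild type 2 far below the rest (-0.20, -0.97 to 0.58). nhr-86, a receptor of immune and fasting responses, stood at 0.13 and nhr-12 at -0.18. nhr-76, through which serotonin drives fat use, stood at 0.78 (-0.45 to 2.02), with wild type 3 low at 25.3 and the other 5 arrays at 54.1 to 89.6, and at -0.011 without wild type 3. nhr-176, which drives a cytochrome gene in response to thiabendazole, was not bright enough to test, at 47.6 and 9.22 in wild type 1 and 3, 57.3 in wild type 2, and 45.2, 39.9 and 24 in yap-1(ys38) 1, 2 and 3.

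Outside these lists 3 members had an unadjusted p under 0.05. nhr-1 read 1007 and 1803 in wild type 1 and 3, 208 in wild type 2, and 739, 549.8 and 1009.9 in yap-1(ys38) 1, 2 and 3. Wild type 1 lay just under yap-1(ys38) 3, so the strains overlapped, and wild type 2 was lowest of all (log2 fold change -0.86, SE 0.32, unadjusted p = 0.0254, adjusted p = 1). Without wild type 3 the log2 fold change was -0.44, without wild type 1 it was -1.28, with all 6 arrays it was 0.039, and the second nhr-1 probe set gave -0.09. nhr-150 read 84.5 and 74.2 in wild type 1 and 3, 82 in wild type 2, and 42.1, 37.5 and 44.5 in yap-1(ys38) 1, 2 and 3. All 3 wild-type arrays lay above all yap-1(ys38) arrays (-0.94, SE 0.41, unadjusted p = 0.0462, adjusted p = 1), and on leaving out 1 array the log2 fold change ran from -1.03 to -0.85. nhr-132 read 50.1 and 26.1 in wild type 1 and 3, 41.2 in wild type 2, and 116, 78.8 and 60.9 in yap-1(ys38) 1, 2 and 3. All yap-1(ys38) arrays lay above all wild-type arrays (1.18, SE 0.48, unadjusted p = 0.0363, adjusted p = 1), with 0.72 without wild type 3 and 1.65 without wild type 1. Both nhr-150 and nhr-132 read under 53.5 in 1 strain, where the size of a change is uncertain, and neither receptor has a role that is stated here.

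The next members by p among those whose strains did not overlap were not called either. Above wild type 1 and 3 lay, at its second probe set, nhr-66 (0.31, SE 0.20), and nhr-212 (0.55, SE 0.34), nhr-232 (0.41, SE 0.29), nhr-144 (0.38, SE 0.33) and nhr-84 (0.16, SE 0.27). Below them lay nhr-103 (-0.63, SE 0.37), nhr-134 (-0.36, SE 0.31), nhr-92 (-0.36, SE 0.32), nhr-237 (-0.29, SE 0.30) and nhr-15 (-0.24, SE 0.28). For nhr-232 and nhr-144 wild type 2, at 189 and 123, lay above or among the mutant arrays. For nhr-103, nhr-134, nhr-92 and nhr-237 it read 72, 94.9, 108 and 90.7, below or within the range of the mutant arrays, so their separation did not extend to all 6 arrays. nhr-15 kept it, with all wild-type arrays at 173 or above and all yap-1(ys38) arrays at 160.5 or below, and so did nhr-212 and nhr-84, where wild type 2 read 45.4 and 144. The second nhr-66 probe set kept it too, at 840.4 and 696 in wild type 1 and 3, 622 in wild type 2, and 914, 979 and 956 in yap-1(ys38) 1, 2 and 3. A probe set of nhr-65 made up the rest of those below (-0.19, SE 0.27, but 0.22 at its second probe set), beside nhr-67.

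**Figure D3:**
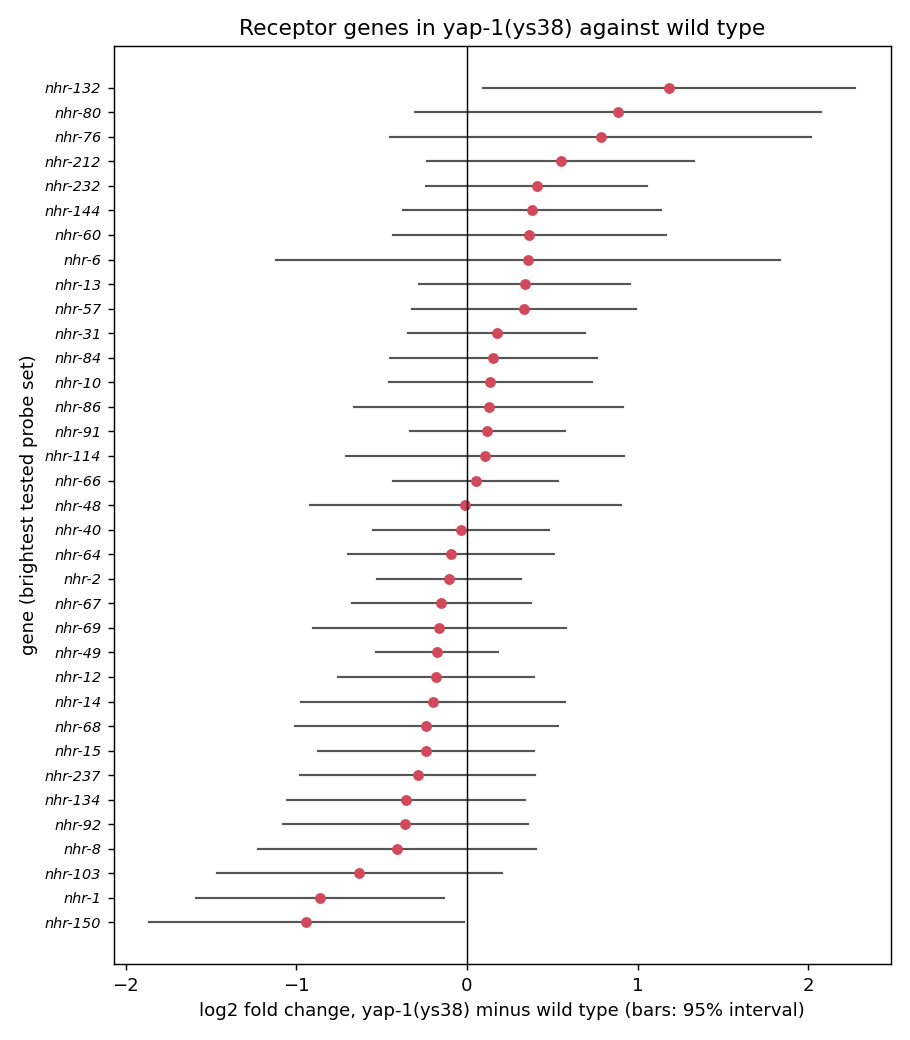
Log2 fold change of yap-1(ys38) over wild type 1 and 3 (points, horizontal axis) with its 95% interval (bars) for each receptor gene named for its role or for its separation of the strains (vertical axis). The intervals of nhr-132, nhr-1 and nhr-150 leave out 0 before adjustment, and those of the other genes include it.

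Nuclear receptor genes outside the rule were not called either. Of 7 that are not members, 5 were tested and 0 called. nhr-23, a regulator of moulting, read 774 and 862 in wild type 1 and 3, 899.6 in wild type 2, and 1186, 1099 and 1105 in yap-1(ys38) 1, 2 and 3. All yap-1(ys38) arrays lay above all wild-type arrays (0.47, SE 0.19, limma unadjusted p = 0.0338, adjusted p = 1), but the dimmer nhr-23 probe set gave -0.50. For nhr-25, an epidermal regulator related to FTZ-F1, the value was -0.11. daf-12, which binds dafachronic acid, gave -0.01, and sex-1, which counts X chromosomes, gave 0.05. Of the 11 tested partner and ligand enzyme genes 8 lay higher and 3 lower, none called, with the coactivator mdt-15 at 0.09 (SE 0.29), the corepressor din-1 of DAF-12 at 0.70 (SE 0.49) and the histone acetyltransferase cbp-1 at 0.16 (SE 0.17). Of the 6 tested genes known to depend on these receptors 4 lay higher and 2 lower, none called. acs-2, the mitochondrial fat oxidation gene that NHR-49 turns on, gave 0.39 (SE 0.48) and fat-6, a stearoyl desaturase, 0.28 (SE 0.61). The largest value in this list went the other way. acdh-1, an acyl-CoA dehydrogenase of the propionate route, read 138 and 501 in wild type 1 and 3, 143 in wild type 2, and 90.4, 101 and 335 in yap-1(ys38) 1, 2 and 3, lower in yap-1(ys38) in each same-numbered pair but with overlapping strains (-0.86, SE 0.66, adjusted p = 1).

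Between replicate numbers the median size of a receptor's log2 difference was 0.29, against 0.19 between strains, and over all tested probe sets 0.27 against 0.14. The arrays numbered 3 were compared with those numbered 1 over both strains, with the strain as a term, in 4 arrays. The titles do not say what the numbers mark. limma called 6 of 158 member probe sets (3.8%), 4 higher and 2 lower in the arrays numbered 3, against 6.9% of all 13529, of which 3.61% lay higher and 3.28% lower. They belong to 5 genes, nhr-6, nhr-50 (both probe sets) and nhr-105 higher and nhr-172 and nhr-61 lower. At an unadjusted p under 0.05 stood 24 members (15.2%), against 19.9% of all. Of the 158, 64 lay higher and 94 lower, a median log2 difference of -0.10 against 0.026 over all. Both strains moved the same way for 100 of the 158 members (63.3%), against 63.2% of all, and by at least 2-fold in both for 3 (1.9%), against 2.19% of all.

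The 6 calls rest on 1 residual degree of freedom and on the variance trend over all probe sets. With all 6 arrays and the number as a 3-level factor, or without the intensity trend, 0 members were called. Markers of adult tissue moved with the numbers: 4 of 5 yolk protein genes were called lower in the arrays numbered 3 and were lower there in both strains, while vit-1 read 181 and 4.99 in wild type 1 and 3 and 33.5 and 48.1 in yap-1(ys38) and was not called. The 5 genes had a summed signal of 7058 and 4500 in the arrays numbered 1 of wild type and yap-1(ys38) against 131 and 284 in those numbered 3. Of 6 neuron markers 1, unc-104, was called higher, and of 6 intestinal markers 1, ges-1, lower. In both strains 3 neuron markers lay higher and 2 lower in the arrays numbered 3, and 2 intestinal markers higher and 4 lower. None of the muscle, epidermis or maternal markers was called at its brightest probe set. A dimmer probe set of the epidermis marker vab-10 was called lower (log2 difference -0.92, limma adjusted p = 0.0198). All 6 sperm genes were called lower, their summed signal being 1993 and 1880 against 382 and 474. The sperm probe sets all carry the suffix x, so they may read shared transcripts and not 6 separate genes. For control transcripts the 3-prime signal exceeded the 5-prime signal, an excess that grows as RNA integrity falls. Its mean log2 value was 2.68 and 2.86 in the arrays numbered 1 and 3.74 and 3.07 in those numbered 3. The part of these differences in the calls below was not tested.

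nhr-6 showed the largest difference of the called members. It read 84.3 and 131 in the arrays numbered 1 of wild type and yap-1(ys38), 417 and 353 in those numbered 3, and 79.3 and 300.4 in those numbered 2. Both arrays numbered 3 were high in either strain, yap-1(ys38) 2 lay with them and wild type 2 with the low arrays (log2 difference 3 minus 1 1.87, SE 0.31, limma adjusted p = 4.97e-05; 2.31 in wild type and 1.44 in yap-1(ys38)). The second probe set, too dim to be tested, read 6.07 and 75.7 in the arrays numbered 1 and 67.7 and 125 in those numbered 3. With all 6 arrays the adjusted p of nhr-6 was 0.476 and without the trend 0.0656.

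nhr-50 read 206 and 199.8 in the arrays numbered 1 and 462 and 306 in those numbered 3, with 55 and 193 in those numbered 2. Its second probe set read 154 and 167, then 362 and 352, with 26.8 and 213. Both probe sets gave the same order of arrays within wild type, 3 above 1 above 2 (log2 differences 0.89, SE 0.28, adjusted p = 0.0389, and 1.15, SE 0.29, adjusted p = 0.00781). The next gene on chromosome V, nhr-63, had a like profile, 166 and 164 in the arrays numbered 1 and 379 and 236 in those numbered 3, and was not called (0.86, adjusted p = 0.0712). Both nhr-50 probe sets are of the kind that matches several transcripts, and whether they also read nhr-63 was not tested.

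nhr-105 read 414 and 423 in the arrays numbered 1 and 573 and 987 in those numbered 3. The rise was carried mainly by yap-1(ys38) (0.85, SE 0.24, adjusted p = 0.0221; 0.47 in wild type and 1.22 in yap-1(ys38)). nhr-172 read 507 and 431, then 197 and 252, lower in both arrays numbered 3, with wild type 2 and yap-1(ys38) 2 at 177 and 179.9 (-1.07, SE 0.26, adjusted p = 0.00767). Its neighbour nhr-171 read 152 and 121, then 81.2 and 48.9, also lower in both, and was not called (-1.11, adjusted p = 0.124). nhr-61 read 868 and 833, then 383 and 636, a fall mainly in wild type (-0.78, SE 0.24, adjusted p = 0.0325). Without the strain term and after quantile normalization nhr-6, nhr-172 and the second nhr-50 probe set passed, while the brighter nhr-50 probe set, nhr-105 and nhr-61 did not.

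Next in order were members that did not pass. Higher in both arrays numbered 3 were nhr-1 (log2 difference 0.65, adjusted p = 0.0559, but -0.23 at its second probe set) and nhr-8 (0.71, adjusted p = 0.0606), and lower in both were nhr-221 (-0.94, adjusted p = 0.106) and nhr-130 (-0.81, adjusted p = 0.108). Of the genes that depend on the receptors, acdh-1, which NHR-10 and NHR-68 turn on, was higher in both arrays numbered 3 (the values above) and was called (1.87, SE 0.30, adjusted p = 2.07e-05). Its regulators were not called, nhr-10 at -0.33 (adjusted p = 0.454) and nhr-68 at 0.62 (adjusted p = 0.269). Among partners and ligand enzymes dhs-16, a steroid dehydrogenase of dafachronic acid synthesis, was called lower (-0.89, SE 0.28, adjusted p = 0.0458).

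**Figure D4:**
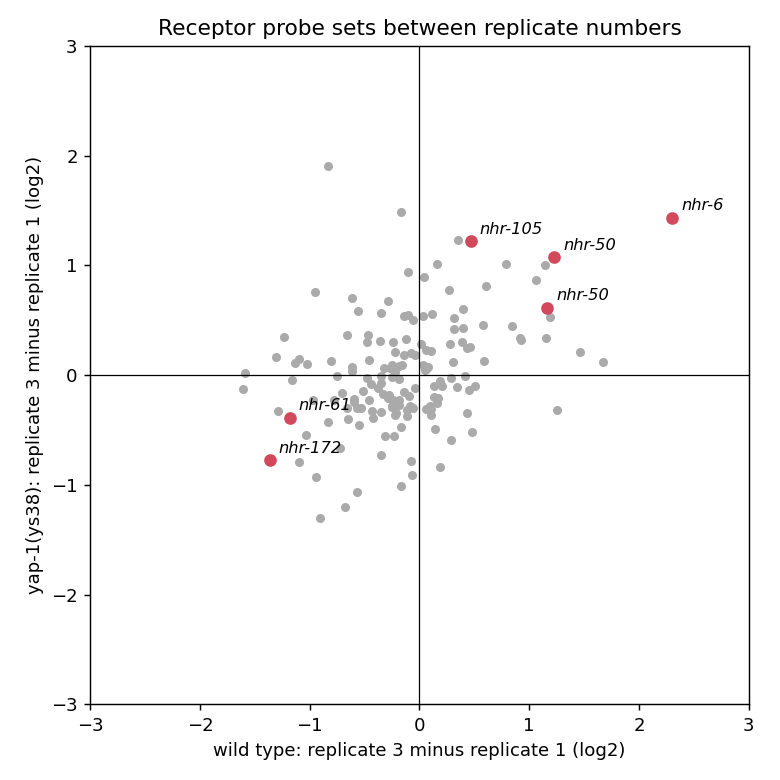
Log2 difference of the array numbered 3 minus that numbered 1 in wild type (horizontal axis) and in yap-1(ys38) (vertical axis) for the 158 tested receptor probe sets, those called at an adjusted p under 0.05 in red. nhr-6 lies at the upper right, nhr-50 and nhr-105 are higher in both strains, and nhr-172 and nhr-61 are lower in both.

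In wild type 2, the array set aside by the study, receptors were more often at their lowest than at their highest. It read below all 5 other arrays for 81 of 158 tested members (51.3%), against 34.7% of all tested probe sets, and above all 5 for 16 (10.1%), against 32.4% of all. It lay at least 2-fold below the nearest other array for 14 members (8.86%), against 10.5% of all, and at least 2-fold above it for 0, against 0.872% of all, so gaps of this size were no more frequent among receptors. Between the filter and 200 it was lowest for 51.1% of the members against 45.4% of all probe sets in that range, and highest for 10.6% against 18.0%. Between 200 and 1000 it was lowest for 25 of 50 members against 30.95% of all and highest for 8% against 38.8%. Over 1000, with 14 members, it was lowest for 57.1% against 29.2% and highest for 14.3% against 37.5%. This is 1 array, so no test was made.

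The low receptors in wild type 2 ran from dim to bright. nhr-50 was 3.5-fold below the nearest other array at its brighter probe set, nhr-63 2.75-fold, nhr-1 2.64-fold, nhr-120 2.6-fold, nhr-88 2.56-fold and nhr-3 2.06-fold. nhr-120 read 117 and 160.9 in wild type 1 and 3, 45.1 in wild type 2, and 174, 130.4 and 158 in yap-1(ys38) 1, 2 and 3. The few receptors at their highest there were led by nhr-161, at 214 against 105 and 89.4 in wild type 1 and 3 and 118, 103 and 80.1 in yap-1(ys38), and by nhr-2, whose second probe set read 1870.1 against 1005 and 829.6 and 970.3, 1164 and 856. nhr-60, nhr-12 and nhr-67 were also highest in wild type 2.

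Summed signals of tissue markers also differed in wild type 2. The summed signal of 6 muscle markers was 21056 in wild type 2 against 28209 to 41842 in the other arrays, that of 6 neuron markers 7223 against 9797 to 13567, and that of 6 intestinal markers 4446 against 8181 to 14540. For 6 epidermis markers the sum was 12269 in wild type 2 against 12780 to 16473. The lists were not uniform. Of the epidermis markers 4 were at their lowest in wild type 2 and elt-1 was at its highest. Wild type 2 was the lowest array for 4 of the muscle markers and for 5 of the neuron markers, with unc-119 at its highest there. Of the intestinal markers asp-1 and ifb-2 were at their lowest, elt-7 and end-1 at their highest and the other 2 within the range. Sums follow the brightest genes, here asp-1, at 1655 in wild type 2 against 4847 to 10041. As a geometric mean the intestinal list read 571 in wild type 2 against 647 to 888. The muscle sum follows act-4, which was not at its lowest in wild type 2, but the geometric mean of that list was 1378 against 2436 to 3207. The 8 maternal and early embryo markers summed to 29088 against 19658 to 24492, the 5 yolk genes to 12316 against 131 to 7058, and the 6 sperm genes to 2551 against 382 to 1993. Of these lists 5 maternal, all 5 yolk and 5 sperm genes were at their highest in wild type 2, and the maternal gene skn-1 was at its lowest. The sperm probe sets may read shared transcripts. No marker read 0. The mean 3-prime to 5-prime log2 ratio was 3.64 in wild type 2. Only wild type 3, at 3.74, was higher, and the remaining arrays stood at 2.68 to 3.07. The part of these marker levels or of RNA integrity in the receptor values was not tested, and fewer cells of a type cannot be told apart from less RNA per cell in whole embryos.

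**Figure D5:**
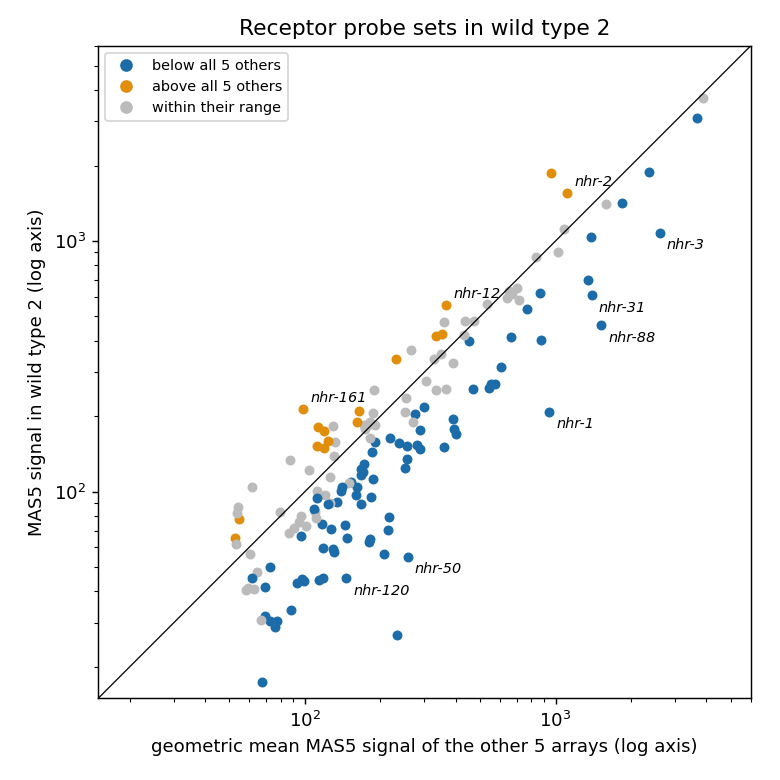
MAS5 signal in wild type 2 (vertical axis, log scale) against the geometric mean of the other 5 arrays (horizontal axis, log scale) for the 158 tested receptor probe sets. Blue points (81) lie below all 5 other arrays, orange points (16) above all 5 and grey points within their range, and the line marks equal signal.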

How the data were processed

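Messenger RNA of whole embryos was measured on 6 Affymetrix arrays, 3 per strain. The deposited values are linear MAS5 intensity values per probe set, to which the authors applied global scaling, per the labels' design text. With 2% trimmed at both ends each array averaged 500.1, so total RNA cannot be compared. Detection calls and protein sequences were not used here. Precision is limited by how few arrays there are.

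The 77 control probe sets were left out. Signals were log2-transformed with no further scaling, and 13529 probe sets above the 40th percentile of the mean log2 signal over the 6 arrays were tested two-sided by limma 3.58.1 (R 4.3.3), using lmFit and then eBayes with trend = TRUE, and p-values were adjusted by Benjamini-Hochberg over all of them at a threshold of 0.05. Strains were compared on 5 arrays without covariates. Numbers 3 and 1 were compared on 4 arrays with the strain as a term. Gene names came from the platform annotation. By gene ID all 252 were found in RefSeq's gene table (assembly WBcel235), with 0 symbols changed. A gene with several probe sets is represented by the brightest tested one. The numbers come from the sample titles. After subtraction of strain means, arrays sharing number 1, 2 or 3 correlated across the strains at 0.364, 0.345 and 0.445, and on this basis arrays were treated as paired by number in an added blocked fit. Both fits were checked on simulated data with planted changes. The simulated noise was independent between arrays, without the likeness of same-numbered arrays. The check therefore covers neither false calls under that likeness nor changes smaller than those planted.

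Named genes were the tested members of role lists, the 8 brightest members, up to 6 per direction with the lowest p among those whose strains did not overlap, up to 5 per direction by p between numbers with both strains moving the same way, and the 4 with the largest gap of wild type 2. nhr-71 and nhr-10 were added to the brightest, and nhr-1, the second nhr-66 probe set, nhr-65, the members at the edge of the filter and members described for wild type 2 beyond those 4 were singled out, after their values were seen. The members and lists were chosen with earlier results of these data known. The shares within ranges of signal were also computed after the data were seen. Alternatives changed the set of arrays, the block, the normalization, the filter, a floor on signals, the variance model, the test (the methods' t-test) or dropped 1 replicate.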

Additional observations from a re-analysis of the deposited data

Results flagged for a closer look

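Among tested members 3 signals stood out. For nhr-162, the same-numbered arrays of the strains differed in opposite directions, with a log2 difference of yap-1(ys38) minus wild type of -1.72 for number 1 and 1.01 for number 3. The 4 values, 81.8 and 24.8 and then 46 and 92.6, lie around the filter intensity of 53.5, and this difference between the pairs was not tested. It was the only member with opposite differences of at least 2-fold in both pairs, of 22 such probe sets among all tested.

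In wild type 2, which the comparison of strains does not use, nhr-161 read 214 against at most 118 in the other arrays, and the second nhr-2 probe set read 1870.1 against at most 1164, both more than 1.5-fold above every other array. The brightest nhr-2 probe set read 1555 there against at most 1182. nhr-161 and nhr-162 lie in 1 run of neighbouring receptor genes on chromosome V. Groups of 3 arrays are too small to test for a sample apart from its group.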

How the results depend on the processing

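In the comparison of strains limma and the methods' t-test called 0 members under every alternative, the lowest adjusted p being 0.476, for nhr-1 without wild type 1. The number of members at an unadjusted p under 0.05, 3 as reported, was 6 with the replicate block, 5 with the replicate block and all 6 arrays, 7 with no filter, 1 with the filter at the 60th percentile, 1 by the methods' t-test, and 0 to 10 on leaving out 1 replicate, 0 without yap-1(ys38) 2 and 10 without wild type 1. Over all probe sets the block called 12, the fit without wild type 1 called 3, and every other alternative 0. Except for the methods' t-test, no alternative had a share of all probe sets at an unadjusted p under 0.05 computed beside the members' count. The median log2 fold change of the members, 0.097 as reported, was 0.21 with all 6 arrays, with or without the block, and -0.015 to 0.14 on leaving out 1 replicate. The medians of the 6 role lists moved by less than the spread between arrays, though with all 6 arrays those of the target genes (0.18 to 0.36), metabolism and stress receptors (0.079 to 0.17), developmental receptors (0.070 to 0.11) and other nuclear receptor genes (0.048 to 0.13) rose by over 1.5 times and that of the conserved classes went from -0.092 to -0.041. With all probe sets of a gene averaged, the developmental median was 0.12 and that of the other nuclear receptor genes turned to -0.014. Of 158 tested members 59 passed the stricter filter, while the filter on the 5 arrays kept left 153. Between numbers 3 and 1 the 6 calls became 3 without the strain term, 3 after quantile normalization, 0 with all 6 arrays and 0 without the intensity trend, and over all probe sets 933 became 535, 646, 5 and 75, and 576 with no filter. The cause was not tested. Of the single-gene values between strains, 679 moved by less than 1 standard error and 63 by more, and 0 crossed the threshold. Between numbers 316 kept their side of the threshold, 19 lost it and 1 gained it, nhr-1 with a floor of 32 (adjusted p = 0.0448). Dim receptors, many of them under 200, limit what changes can be seen.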
